A study of Arabidopsis thaliana with 4 samples.

Results

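The growth-regulating factors are a family of plant transcription factors, and the 10 genes described here are GRF1 to GRF9 of Arabidopsis thaliana together with GIF1 (also called AN3), their coactivator. They were chosen by locus identifier from the 33476 annotations of an mRNA-Seq table, and all 10 were found. The table holds 4 libraries of poly-A RNA from 4 week old plants of the Columbia background, grown in short days (8 h of light, 16 h of dark). Dividing tissue was the meristem with the younger leaves, and non-dividing tissue was the oldest 4 to 6 leaves. Each tissue was sequenced as 2 biological replicates. In both tissues replicate 1 came from plants carrying HTR5-GFP, a tagged histone H3.3, and replicate 2 from plants carrying HTR13-GFP, a tagged histone H3.1, each expressed from its own promoter. Every library therefore carries a tagged histone, replicate and line cannot be told apart, and no untransformed plants were included. Levels are given as FPKM (fragments per kilobase of annotation, scaled to the number of mapped reads), which allows levels of different genes to be compared.

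GRF proteins share a QLQ domain, through which they bind GIF coactivators, and a WRC domain, through which they bind DNA. GIF proteins do not bind DNA themselves and connect GRFs with SWI/SNF chromatin remodelling complexes. In Arabidopsis, several GRFs and GIF1 are known for promoting cell proliferation in young leaves, and loss of GIF1 gives narrow leaves with fewer cells. Most GRF transcripts are targets of the microRNA miR396, which is known to accumulate as leaves mature.

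The miR396 sequences and their matches in the GRF transcripts are shown because they divide the family independently of expression. They were taken from RefSeq (TAIR10.1), and the seed of each microRNA (bases 2 to 8) is in capitals. Both mature forms have the same seed, UCCACAG. The first is encoded on chromosome 2 (4142443 to 4142463, minus strand) and the second on chromosome 5 (13611808 to 13611828, plus strand).
ath-miR396a-5p: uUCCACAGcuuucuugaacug
ath-miR396b-5p: uUCCACAGcuuucuugaacuu

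In 7 of the 9 GRF transcripts, a stretch of 22 bases in the coding sequence matched miR396 with a penalty of 2 or 2.5 (1 for a mismatch or an extra base, 0.5 for a G:U pair). Capitals mark Watson-Crick pairs, and lower case marks a mismatch, a G:U pair or 1 extra base of the transcript. Each stretch is marked against the form it matched best, miR396b-5p for GRF9 and miR396a-5p for the others. The 2 forms differ in their last base, which faces the first base of the stretch, so that letter is not comparable between GRF9 and the others. The extra base was placed between positions 7 and 8 of the microRNA, counted from its 5′ end.
GRF1: tcGTTCAAGAAAGCcTGTGGAA
GRF2: tcGTTCAAGAAAGCcTGTGGAA
GRF3: CcGTTCAAGAAAGCcTGTGGAA
GRF4: CcGTTCAAGAAAGCcTGTGGAA
GRF7: tcGTTCAAGAAAGCaTGTGGAA
GRF8: tcGTTCAAGAAAGCaTGTGGAA
GRF9: AcGTTCAAGAAAGCtTGTGGAA

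The sites of GRF1 and GRF2 were identical, as were those of GRF3 and GRF4 and those of GRF7 and GRF8. In TAIR10.1 the GRF1 site lies at chr2:9729944-9729965 (plus strand), that of GRF3 at chr2:15271745-15271766 (minus strand), that of GRF4 at chr3:19617293-19617314 (minus strand) and that of GRF9 at chr2:18746292-18746313 (plus strand). A penalty of 2.5 or less was reached by 16 of the 31340 genes with a RefSeq mRNA (0.0511%). The best stretch in GRF5 had a penalty of 6.5, which 64.6% of genes reached, and those in GRF6 and GIF1 had a penalty of 5.5, which 22.0% of genes reached. GRF5 and GRF6 thus had no comparable match in the transcripts searched. These matches are descriptions of sequence, and cleavage was not measured.

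All 10 genes had a higher FPKM in both libraries of dividing tissue than in either library of non-dividing tissue. The 2 tissues were separated in this way for 62.2% of the 17967 annotations tested, always counted with dividing tissue higher. The comparison of tissues used limma on log2(FPKM + 1). It covered annotations whose mean FPKM reached 1, with Benjamini-Hochberg adjustment over all of them. This minimum was passed by 7 of the 10 genes, of which 4 (GRF2, GRF4, GRF5 and GRF9) reached it through dividing tissue alone. The other 3 (GRF6, GRF7 and GRF8) are described without this test. All 7 tested genes were called higher in dividing tissue at an adjusted p under 0.05, a call made for 51.7% of all annotations tested, and 18.2% were called higher in non-dividing tissue. Because of the minimum, the count of 7 says little about the family, and the size of each difference is given below. The values are bulk measurements of dissected tissue, so fewer cells expressing a gene and less RNA per cell cannot be told apart.

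**Figure D1:**
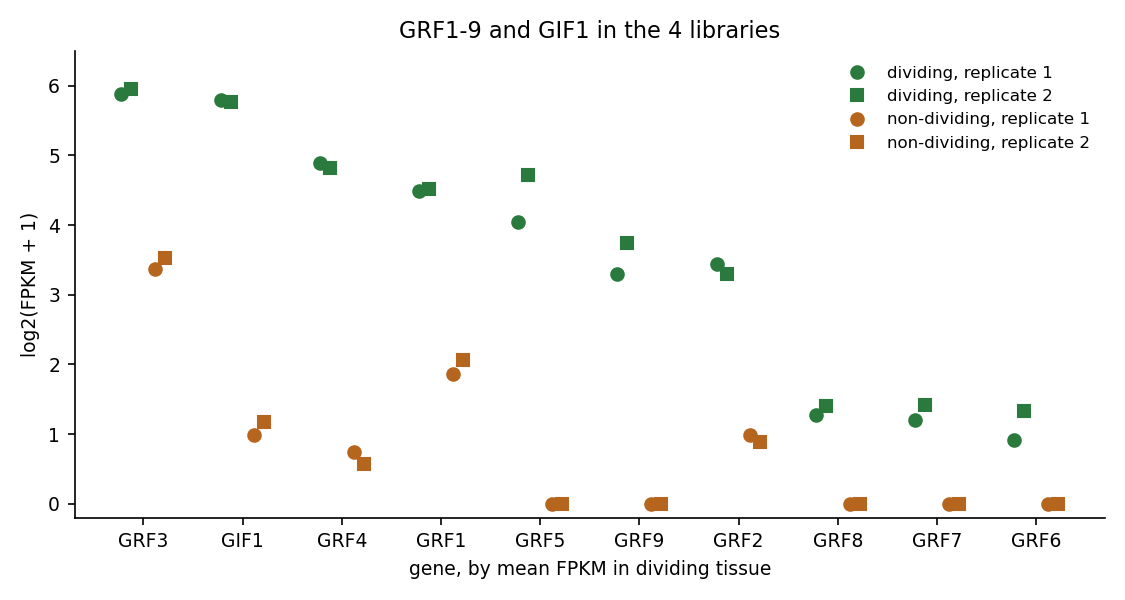
Levels of GRF1 to GRF9 and GIF1 as log2(FPKM + 1) in each of the 4 libraries (green, dividing; brown, non-dividing; circles, replicate 1; squares, replicate 2), with values listed at 0 drawn at 0. Both dividing libraries lie above both non-dividing libraries for each of the 10 genes, and 5 genes are listed at 0 in both non-dividing libraries.

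GIF1 (AT5G28640, chr5:10647570-10649892 in TAIR9) encodes the coactivator shared by the family. It had an FPKM of 54.2 and 53.4 in dividing tissue (replicates 1 and 2), against 0.978 and 1.26 in non-dividing tissue. The means were 53.8 ± 0.587 in dividing tissue, against 1.12 ± 0.198 in non-dividing tissue (SD, n = 2 each), which gives a ratio of 48.2. Within the HTR5-GFP line the ratio was 55.5 and within the HTR13-GFP line 42.5. On the log2(FPKM + 1) scale, GIF1 had a difference of 4.70 ± 0.10 (SE), with an adjusted p of 1.16e-04 in limma. This was the largest of the 7 tested genes with a pseudocount of 1, whereas with a pseudocount of 0.1 those of GRF5 (7.64) and GRF9 (6.73), which were listed at 0 in non-dividing tissue, exceeded that of GIF1 (5.48). The replicates of each tissue thus differed far less than the tissues did.

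GRF3 (AT2G36400, chr2:15270088-15272823) had the highest FPKM of the family in every library. It reached 57.8 and 60.9 in dividing tissue, against 9.37 and 10.5 in non-dividing tissue. The mean of 59.3 ± 2.22 FPKM in dividing tissue, against 9.93 ± 0.793 FPKM in non-dividing tissue, gave a ratio of 5.98 (6.17 and 5.81 in the HTR5-GFP and HTR13-GFP lines). GRF3 therefore had the smallest ratio of the 5 genes with FPKM above 0 in all libraries, and its log2 difference was 2.47 ± 0.10 (limma, adjusted p 1.87e-04). Its annotation overlaps AT2G36390 by 5 bases.

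GRF4 (AT3G52910, chr3:19616021-19618449) carries the same miR396 site as GRF3 but differed much more between tissues. Its FPKM was 28.8 and 27.3 in dividing tissue, against 0.669 and 0.494 in non-dividing tissue. Mean FPKM was 28.0 ± 1.04 in dividing tissue, against 0.581 ± 0.124 in non-dividing tissue, and the ratio of 48.2 (43.0 and 55.3 in the HTR5-GFP and HTR13-GFP lines) was close to that of GIF1. The log2 difference was 4.20 ± 0.11 (limma, adjusted p 1.33e-04).

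GRF1 (AT2G22840, chr2:9728756-9731301) and GRF2 (AT4G37740, chr4:17725337-17727730) are close relatives known to act together on leaf size. GRF1 had an FPKM of 21.4 and 21.9 in dividing tissue, against 2.65 and 3.20 in non-dividing tissue, and the means gave a ratio of 7.42. GRF2 was lower in every library, at 9.91 and 8.83 FPKM in dividing tissue, against 0.987 and 0.842 FPKM in non-dividing tissue, and the means gave a ratio of 10.3. Mean FPKM of GRF1 was 21.7 ± 0.346 in dividing tissue, against 2.92 ± 0.389 in non-dividing tissue, and that of GRF2 was 9.37 ± 0.760, against 0.914 ± 0.102. Both genes were called higher in dividing tissue, with log2 differences of 2.54 ± 0.11 for GRF1 and 2.44 ± 0.11 for GRF2 (limma, adjusted p 2.11e-04 and 2.42e-04). The per-line ratios of GRF1 (8.10 and 6.86) and GRF2 (10.0 and 10.5) did not overlap.

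GRF5 (AT3G13960, chr3:4608383-4610399), which is known to promote the proliferation of leaf cells, had an FPKM of 15.5 and 25.2 in dividing tissue and was listed at 0 in both non-dividing libraries. GRF9 (AT2G45480, chr2:18745340-18747533) had 8.88 and 12.4 FPKM in dividing tissue and was likewise listed at 0 in both non-dividing libraries. No fold is given against values listed at 0. The limma differences on the log2(FPKM + 1) scale, 4.38 ± 0.24 for GRF5 and 3.52 ± 0.17 for GRF9, depend on the pseudocount and are not folds (adjusted p 2.98e-04 and 2.58e-04). Such a pattern was uncommon at this level: of 13430 nuclear protein-coding genes with a mean FPKM of at least 5 in dividing tissue, 79 (0.588%) were listed at 0 in both non-dividing libraries.

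GRF6 (AT2G06200, chr2:2426271-2427323), GRF7 (AT5G53660, chr5:21794536-21796046) and GRF8 (AT4G24150, chr4:12535972-12539387) were near the lower end of measured levels. GRF7 is known as a repressor of the stress gene DREB2A. In dividing tissue GRF6 had an FPKM of 0.893 and 1.51, GRF7 of 1.30 and 1.66, and GRF8 of 1.41 and 1.66. All 3 were listed at 0 in both non-dividing libraries, which brings the number of such genes to 5 of the 10. Of all annotations above 0 in both dividing libraries, 4.95% (990 of 19998) were listed at 0 in both non-dividing libraries. These annotations span all levels, and the share was only 0.588% among nuclear protein-coding genes with at least 5 FPKM in dividing tissue. It is therefore higher than 4.95% among the remaining annotations, and no share was taken at the level of GRF6, GRF7 and GRF8. When limma was run without the minimum FPKM, these 3 genes were called higher in dividing tissue, with adjusted p of 0.00546 for GRF6, 0.00162 for GRF7 and 0.00123 for GRF8, as were 48.7% of the 21017 annotations in that comparison (16.1% were called higher in non-dividing tissue). The read depth behind values near 1 FPKM is not known from the table.

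**Figure D2:**
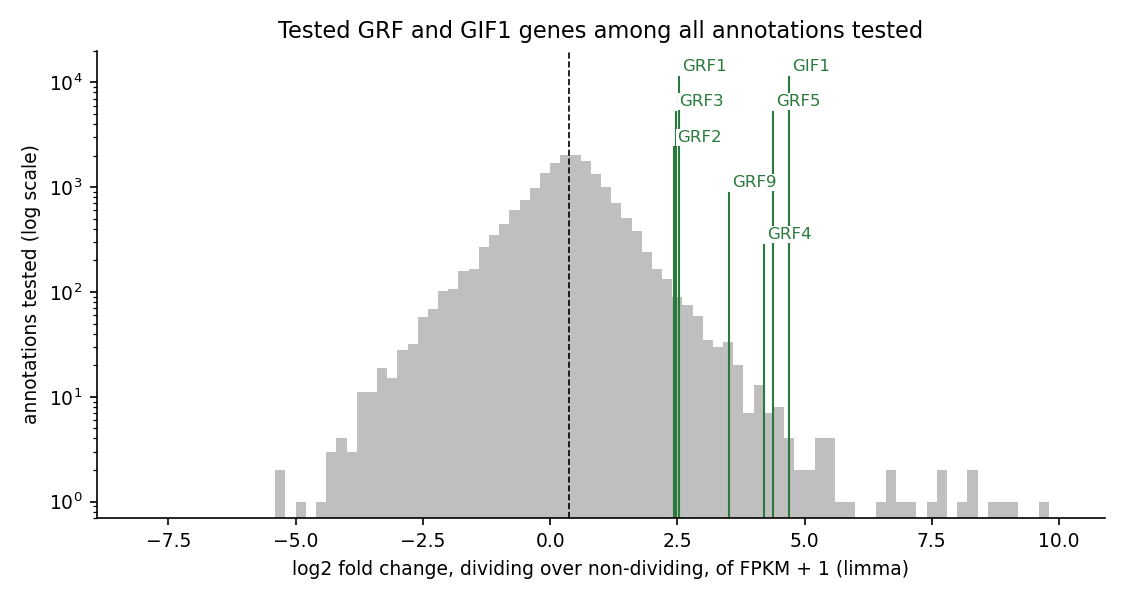
Distribution of log2 fold changes of dividing over non-dividing tissue on the log2(FPKM + 1) scale for the 17967 annotations tested (grey, counts on a log axis), with the 7 tested GRF and GIF1 genes as green lines. The dashed line marks the median of all annotations, 0.38, and the tested genes lie between 2.44 and 4.70.

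The median log2 difference over all annotations tested was 0.38, and it fell to 0.01 after rescaling, in which every library was divided by a factor that brought its typical ratio to the average of all 4 libraries to 1. After rescaling, 30.4% of annotations were called higher in dividing tissue and 31.2% higher in non-dividing tissue. The 7 genes remained higher in dividing tissue after rescaling, with log2 differences from 2.07 (GRF3) to 4.39 (GIF1) and a largest adjusted p of 3.54e-04 in limma.

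In dividing tissue the order of levels was GRF3 (mean FPKM 59.3), GIF1 (53.8), GRF4 (28.0), GRF1 (21.7), GRF5 (20.4), GRF9 (10.6), GRF2 (9.37), GRF8 (1.54) and GRF7 (1.48), with GRF6 last. GRF3 stood at the 92.8th percentile of nuclear protein-coding genes and GRF6 at the 36.4th. The replicates of GRF1 and GRF5 overlapped, as did those of GRF9 and GRF2, and those of GRF8, GRF7 and GRF6, so the order within these groups is not set by the data. In non-dividing tissue the order was GRF3 (9.93), GRF1 (2.92), GIF1 (1.12), GRF2 (0.914) and GRF4 (0.581), followed by the 5 genes listed at 0. Here GIF1 and GRF2 overlapped. GIF1 and GRF4 thus took lower places in non-dividing tissue than in dividing tissue, whereas GRF3 was first in both.

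Summed over GRF1 to GRF9, the FPKM was 146 and 161 in dividing tissue, against 13.7 and 15.0 in non-dividing tissue, and the means were 154 ± 11.0 in dividing tissue, against 14.3 ± 0.956 in non-dividing tissue (SD, n = 2 each). The ratio of the means was 10.7, and it was also 10.7 within each line. The composition of this sum differed between tissues. GRF3 made up 39.6 and 37.7% of it in dividing tissue, against 68.5 and 69.8% in non-dividing tissue. GRF4 made up 19.7 and 16.9% in dividing tissue, against 4.90 and 3.29% in non-dividing tissue. The share of GRF2 was 6.79 and 5.47% in dividing tissue, against 7.22 and 5.60% in non-dividing tissue, so that its replicates overlapped between tissues. GRF1 to GRF4 together accounted for 80.8 and 73.7% of the sum in dividing tissue and for all of it in non-dividing tissue.

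**Figure D3:**
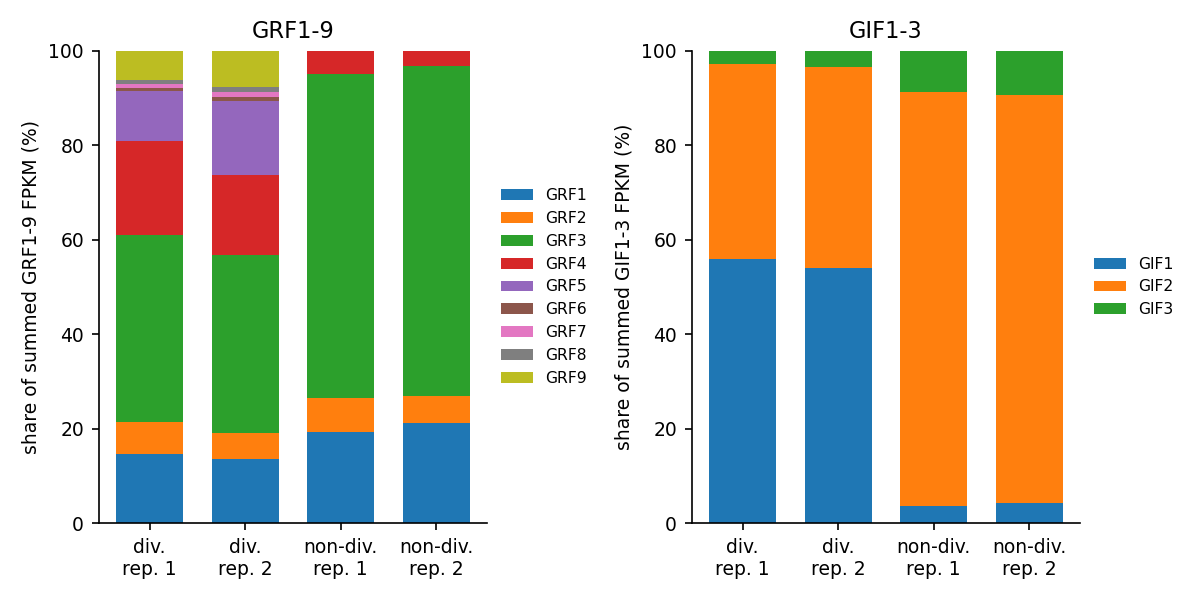
Stacked FPKM shares of GRF1 to GRF9 (percent of their sum, left) and of GIF1 to GIF3 (right) in each of the 4 libraries. GRF3 takes 39.6 and 37.7% in dividing tissue, against 68.5 and 69.8% in non-dividing tissue, where GRF5 to GRF9 are listed at 0.

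The 7 GRF genes with a miR396 site together had 129 and 135 FPKM in dividing tissue, against 13.7 and 15.0 FPKM in non-dividing tissue, with a ratio of means of 9.21. The GRF genes without such a site, GRF5 and GRF6, were both listed at 0 in non-dividing tissue. So were GRF7, GRF8 and GRF9, which have a site, and presence of the site therefore did not separate genes listed at 0 from the others. The annotations of the miR396 precursors, MIR396A (AT2G10606) and MIR396B (AT5G35407), were listed at 0 in all 4 libraries. Mature miR396 was not measured by these libraries.

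Replicates of dividing tissue differed in an uneven way over the family. The FPKM in the HTR13-GFP library divided by that in the HTR5-GFP library was 1.69 for GRF6, 1.63 for GRF5, 1.39 for GRF9, 1.28 for GRF7 and 1.17 for GRF8. For the 5 genes detected in non-dividing tissue, the same ratio lay between 0.892 (GRF2) and 1.05 (GRF3). The 5 genes listed at 0 in non-dividing tissue were thus the 5 with the highest ratio between lines in dividing tissue. A log2 ratio at least as far from 0 as that of GRF5 (0.71) was found in 3.11% of 17836 annotations, and for GRF6 (0.75) in 2.62%. GRF6 lies below the minimum FPKM of these annotations. With 1 library per line and tissue, this difference has no replicate check, and it was noticed after the values were seen.

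**Figure D4:**
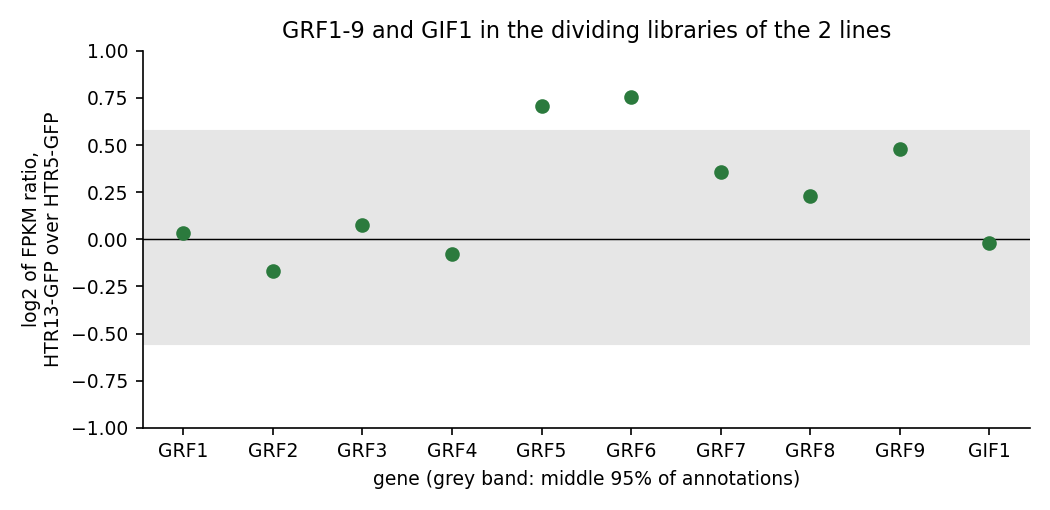
Log2 ratio of FPKM in dividing replicate 2 (HTR13-GFP) over dividing replicate 1 (HTR5-GFP) for the 10 genes, with the middle 95% of 17836 annotations (−0.56 to 0.57) shaded. GRF5 and GRF6 lie above the shaded range and the other 8 genes inside it.

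GIF2 (AT1G01160) and GIF3 (AT4G00850), the paralogs of GIF1, had much smaller differences between tissues than GIF1. GIF2 had 39.9 and 42.2 FPKM in dividing tissue, against 23.5 and 26.1 FPKM in non-dividing tissue, a log2 difference of 0.71 ± 0.10 (limma, adjusted p 0.00248) that was 0.30 after rescaling (adjusted p 0.0348). GIF3 had 2.79 and 3.38 FPKM in dividing tissue, against 2.33 and 2.80 FPKM in non-dividing tissue, and these ranges overlapped (log2 difference 0.19, adjusted p 0.254, and −0.11 after rescaling). Of the summed FPKM of GIF1 to GIF3, GIF1 made up 56.0 and 53.9% in dividing tissue, against 3.65 and 4.17% in non-dividing tissue. GIF2 took 41.1 and 42.6% in dividing tissue, against 87.6 and 86.5% in non-dividing tissue. The GIF transcript most abundant in dividing tissue was thus GIF1, and in non-dividing tissue GIF2.

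For each FPKM of GIF1 there were 2.69 and 3.02 FPKM of GRF transcripts in dividing tissue, against 14.0 and 11.9 in non-dividing tissue. Counted against all 3 GIF genes, the order was the other way round, with 1.51 and 1.63 FPKM of GRF transcripts per FPKM of GIF in dividing tissue, against 0.511 and 0.498 in non-dividing tissue. These are ratios of transcript levels, and protein was not measured.

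Subunits of SWI/SNF complexes, with which GIF1 associates, were higher in dividing tissue in 12 of 13 cases (limma, adjusted p under 0.05), and 1 was higher in non-dividing tissue. Of all annotations tested, 51.7% were called higher in dividing tissue and 18.2% higher in non-dividing tissue. The median log2 difference of the subunits was 0.82, against 0.38 over all annotations. The largest difference was that of BSH (AT3G17590), the SNF5-type core subunit, with 37.1 ± 3.60 FPKM in dividing tissue, against 11.5 ± 1.60 FPKM in non-dividing tissue (log2 difference 1.62, adjusted p 6.17e-04). The ATPases SYD (AT2G28290) and BRM (AT2G46020) had log2 differences of 0.97 and 0.91. SWP73A (AT3G01890) was higher in non-dividing tissue, with a log2 difference of −0.31 (adjusted p 0.0326), whereas its paralog SWP73B (AT5G14170) had one of 0.82. After rescaling, 9 of the 13 subunits were called higher in dividing tissue, 1 was called higher in non-dividing tissue and CHR23, SWI3C and SWI3D were not called, where 30.4% and 31.2% of all annotations were called in these directions. The differences of these partners were smaller than those of GIF1 and the tested GRFs.

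**Figure D5:**
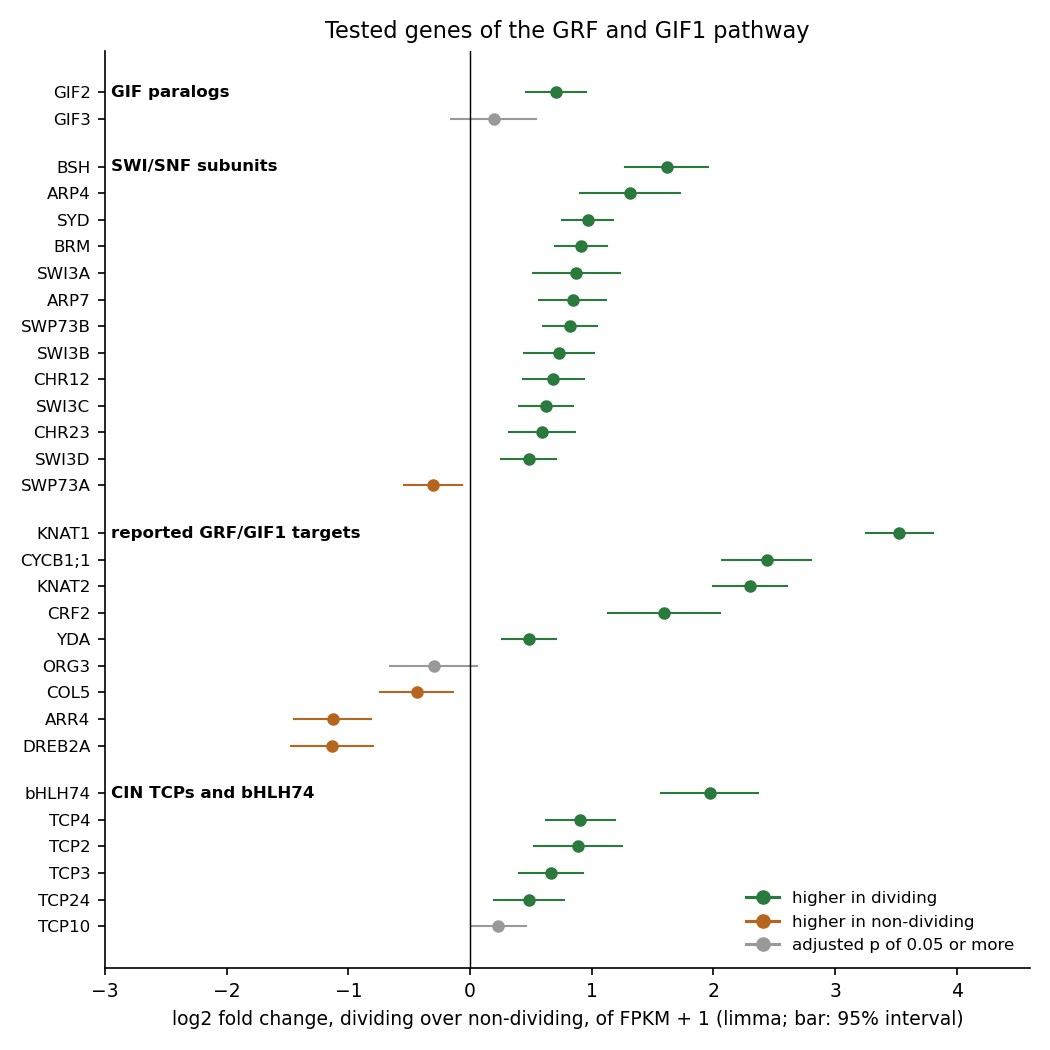
Log2 fold change of dividing over non-dividing tissue on the log2(FPKM + 1) scale, with 95% intervals from limma, for tested GIF paralogs, SWI/SNF subunits, reported GRF or GIF1 targets, CIN-type TCP genes and bHLH74. Points are coloured by the call at an adjusted p under 0.05, and 12 of the 13 SWI/SNF subunits are called higher in dividing tissue.

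Of 10 genes listed as bound or regulated by GRFs or GIF1, 9 were tested, and their differences were mixed in direction. The list was not divided by the reported direction of regulation. The median log2 difference was 0.49 (0.10 after rescaling), against 0.38 over all annotations (0.01 after rescaling), and 5 genes were called higher in dividing tissue, 3 higher in non-dividing tissue. The 5 of 9 are near the share of all annotations called higher in dividing tissue (51.7%), and 18.2% of all annotations were called higher in non-dividing tissue. KNAT1, KNAT2 and CYCB1;1 reached the minimum FPKM through dividing tissue alone, and ORG3 through non-dividing tissue alone. Because of the minimum, these counts say little about the listed genes as a group. Called higher in dividing tissue were the KNOX genes KNAT1 (AT4G08150) and KNAT2 (AT1G70510), the mitotic cyclin CYCB1;1 (AT4G37490), the cytokinin response factor CRF2 (AT4G23750) and the kinase gene YDA (AT1G63700). KNAT1 had 10.4 and 10.7 FPKM in dividing tissue and was listed at 0 in both non-dividing libraries, as was KNAT2, with 3.99 and 3.88 FPKM in dividing tissue. CRF2 had 9.74 and 11.1 FPKM in dividing tissue, against 2.23 and 3.41 FPKM in non-dividing tissue (log2 difference 1.59, limma adjusted p 0.00141). Called higher in non-dividing tissue were DREB2A (AT5G05410), the type-A response regulator gene ARR4 (AT1G10470) and the CONSTANS-like gene COL5 (AT5G57660). DREB2A, a drought-response gene, had 3.75 and 3.37 FPKM in dividing tissue, against 8.10 and 9.98 FPKM in non-dividing tissue (log2 difference −1.13, adjusted p 0.00156). ARR4 had 36.8 and 35.5 FPKM in dividing tissue, against 72.5 and 88.8 FPKM in non-dividing tissue. ORG3 (AT3G56980) was not called, with a log2 difference of −0.30 (adjusted p 0.109). HEC1 (AT5G67060) was too low to be tested, with 0.412 and 0.535 FPKM in dividing tissue, against 0 in both non-dividing libraries. After rescaling YDA was no longer called (log2 difference 0.10, adjusted p 0.341) and ORG3 was called higher in non-dividing tissue (−0.52, adjusted p 0.0274), so that 4 of the 9 genes were called in each direction, beside 30.4% of all annotations higher in dividing tissue and 31.2% higher in non-dividing tissue.

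The CIN-type TCP genes encode factors that promote leaf maturation, and TCP4 is known to activate miR396 genes. TCP4 (AT3G15030) had 14.8 and 17.2 FPKM in dividing tissue, against 7.74 and 8.40 FPKM in non-dividing tissue (log2 difference 0.90, limma adjusted p 0.0018). TCP2, TCP3 and TCP24 were also called higher in dividing tissue, with log2 differences of 0.89, 0.66 and 0.49, and TCP10 was not called (0.23, adjusted p 0.0656). After rescaling, TCP3 and TCP24 were no longer called, and TCP10 had a log2 difference of −0.15. bHLH74 (AT1G10120), a miR396 target outside the GRF family, had 20.0 and 18.3 FPKM in dividing tissue, against 3.50 and 4.88 FPKM in non-dividing tissue (log2 difference 1.97, adjusted p 5.76e-04). Of these 6 genes 5 were thus called higher in dividing tissue, beside 51.7% of all annotations, and 3 after rescaling, beside 30.4%. Their median log2 difference was 0.78 (0.39 after rescaling). The best match of bHLH74 to miR396 had a penalty of 3.5, reached by 0.495% of genes.

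Division markers and the meristem and primordium markers STM, ANT and AIL6 were called higher in dividing tissue, as were the tested GRF genes. Mature leaf markers were not called. Of all annotations tested, 51.7% were called higher in dividing tissue and 18.2% higher in non-dividing tissue. STM, ANT, AIL6, CYCB1;1 and CDKB1;1 reached the minimum FPKM through dividing tissue alone, so their calls say little. Summed FPKM of 5 meristem and primordium markers was 46.6 and 48.8 in dividing tissue, against 0.814 and 1.27 in non-dividing tissue. Of these, STM had 20.7 and 21.6 FPKM in dividing tissue and was listed at 0 in both non-dividing libraries, while the stem cell genes WUS and CLV3 were listed at 0 in all 4 libraries. Summed FPKM of 4 division markers (CYCB1;1, KNOLLE, CDKB1;1 and CDKB2;1) was 68.5 and 66.5 in dividing tissue, against 3.63 and 3.87 in non-dividing tissue. Their part in the GRF and GIF1 differences was not tested. Of the mature leaf markers, RBCS1A, a Rubisco small subunit, overlapped between tissues. It had 8473 and 8454 FPKM in dividing tissue, against 7497 and 8767 FPKM in non-dividing tissue. LHCB1.1 and SAG13 were higher in both non-dividing libraries than in either dividing library. LHCB1.1 had 4502 and 4337 FPKM in dividing tissue, against 5602 and 6087 FPKM in non-dividing tissue (log2 difference −0.40, limma adjusted p 0.0593). SAG13 had 2.21 and 1.94 FPKM in dividing tissue, against 4.89 and 2.82 FPKM in non-dividing tissue (log2 difference −0.63, limma adjusted p 0.0572). The senescence gene SAG12 was listed at 0 in all 4 libraries. None of the 3 mature leaf genes tested was called. After rescaling, LHCB1.1 and SAG13 were called higher in non-dividing tissue, beside 31.2% of all annotations. After quantile normalization RBCS1A was called higher in dividing tissue (log2 difference 0.75, limma adjusted p 0.00559) and SAG13 higher in non-dividing tissue, beside 32.3% and 28.9% of all annotations. With the replicate number as a block, LHCB1.1 and SAG13 were called higher in non-dividing tissue (limma, adjusted p 0.0494 and 0.0105), a fit that called 20.2% of annotations higher in non-dividing tissue and 54.1% higher in dividing tissue. Floral markers summed to 0.398 and 0.471 FPKM in dividing tissue, against 0 and 0.273 FPKM in non-dividing tissue, and the 3 root hair markers were listed at 0 throughout.

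The genes nearest in pattern to GIF1 and GRF3 were sought by the Euclidean distance of log2(FPKM + 1), centred for each gene, over the 4 libraries and 27091 nuclear protein-coding genes. Nearest to GIF1 was AGP31 (AT1G28290), an arabinogalactan protein gene, at a distance of 0.116, with 126 and 129 FPKM in dividing tissue, against 3.90 and 4.76 FPKM in non-dividing tissue. It was followed by the cytochrome P450 genes CYP77B1 (AT1G11600, 0.153) and CYP78A5 (AT1G13710, 0.168). CYP78A5 is known for promoting organ growth. Nearest to GRF3 was LAX2 (AT2G21050), which encodes an auxin influx carrier, at a distance of 0.0590, with 27.0 and 27.3 FPKM in dividing tissue, against 3.68 and 4.40 FPKM in non-dividing tissue. It was followed by AT1G77270 (0.0638) and SLP3 (AT2G19170, 0.0660). With 4 libraries in 2 tissues, this likeness mostly describes the size of the difference between tissues on the log2(FPKM + 1) scale. That size is not a ratio of FPKM: CYP77B1 and CYP78A5 were listed at 0 in both non-dividing libraries, whereas GIF1 was not.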

How the data were processed

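Poly-A RNA (10 µg of total RNA) was sequenced on an Illumina Genome Analyser. The authors mapped reads onto TAIR9 with TopHat 1.2.0, Bowtie 0.12.7 and SAMtools 0.1.13 and deposited the FPKM that Cufflinks 0.9.3 gave for each annotation and library. FPKM summed to between 700884 and 715002 per library, with 13084 to 14269 annotations listed at 0. Replicates correlated at 0.996 (dividing) and 0.993 (non-dividing), against 0.936 to 0.940 between tissues (Pearson, log2(FPKM + 1), across annotations). Reads per annotation were not used here and were not estimated from FPKM, so the depth behind single values was not assessed and no counting interval is given.

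Tissues were compared with limma 3.58.1 (lmFit, eBayes with trend, two-sided, Benjamini-Hochberg) on log2(FPKM + 1) for annotations whose mean FPKM reached 1, without pairing. The pseudocount makes changes of weakly expressed genes look smaller than they are. With 2 libraries per tissue the smallest two-sided p of an exact permutation test is 0.33, so none was run. Deviations of same-numbered libraries correlated at 0.257 over 17967 annotations, and the numbers coincide with the transgenic line, so a fit with the replicate number as a block was made as well. Rescaling used the median ratio of each library to the mean library over 17887 nuclear protein-coding genes (factors 1.13 and 1.14 in dividing libraries, 0.845 and 0.859 in non-dividing libraries).

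Starts in TAIR9 were raised by 1. Sites of miR396 were searched on the RefSeq transcripts of TAIR10.1, whose coordinates are given for microRNAs and sites only. Table identifiers matched RefSeq locus tags in 32693 cases. Named are the 10 members, the genes of fixed lists and the 3 genes nearest in pattern to GIF1 and to GRF3, the GRF with the highest mean FPKM in dividing tissue. CYCB1;1 is in 2 lists. Members and lists were chosen with earlier results of these data known. Scripts ran under R 4.3.3 and Python 3.11.15 (pandas 2.3.3, numpy 2.4.6, matplotlib 3.10.9). Alternatives covered the pseudocount, the minimum FPKM, the replicate block, rescaling, quantile normalization and leaving out each library.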

Additional observations from a re-analysis of the deposited data

How the results depend on the processing

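The 7 tested genes were called higher in dividing tissue under every alternative run in limma. Of 102 alternative values of single genes, 91 kept their call, 11 (GRF6, GRF7 and GRF8 entering the test) passed the threshold and 0 changed direction. With each library left out in turn, their adjusted p lay between 5.80e-04 and 0.0164. Counts over all annotations depended on scaling: 9282 were higher in dividing tissue as deposited, against 5459 after rescaling, 5804 after quantile normalization and 5893 after rescaling with the replicate block, and 3271 were higher in non-dividing tissue, against 5600, 5184 and 6045. Leaving out 1 library gave 5786 to 8795 annotations higher in dividing tissue and 2012 to 3037 higher in non-dividing tissue, with 6161 and 2066 without dividing replicate 1 and 5786 and 2012 without dividing replicate 2, and the arm with 1 library was assumed to vary like the other. With the replicate block on deposited FPKM the counts were 9723 and 3625, and no call of GRF1 to GRF9 or GIF1 was changed by the pairing. The median log2 difference of the 7 tested genes was 3.52, the value of GRF9, which was listed at 0 in non-dividing tissue, and 4 of the 7 reached the minimum FPKM through dividing tissue alone. It depends on the pseudocount and became 5.38 with a pseudocount of 0.1 and 2.50 over all 10 genes without a minimum FPKM. With 1 dividing library left out it was 3.74 or 3.30. When 1 non-dividing library was left out, GRF8 also passed the minimum FPKM, and the median over these 8 genes was 3.01 or 3.08. The ratio of summed GRF FPKM, 10.7, became 10.4 with a minimum mean FPKM of 5, which left out GRF6, GRF7 and GRF8. It was 8.03 after rescaling, with or without the replicate block, and 8.29 after quantile normalization. With 1 library left out it lay between 10.2 and 11.3. Apart from these changes in the genes included, the causes of the shifts were not tested. Fits without a minimum FPKM that added the block or rescaling were chosen after seeing the data, and GRF6, GRF7 and GRF8 were called higher in dividing tissue in both. The share of all annotations called was not taken in these fits. It was 48.7% higher in dividing tissue in the fit that only dropped the minimum, so these calls say little about the 3 genes.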
